A study of Homo sapiens with 2 samples.

Results

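MMP7 and ADAM12 were examined in total RNA of A549 cells, an established human lung adenocarcinoma line, with and without the RNA acetyltransferase NAT10. Both are metzincins, that is, proteases with a zinc ion in the active site that cut the extracellular matrix or release proteins from the cell surface. The members were taken by gene name, which found 2 genes among the 1415 genes of the deposited table. The Control library came from unmodified A549 cells. The NAT10 ko1 library came from a homozygous single-cell clone in which CRISPR/Cas9 had deleted part of NAT10, so the deletion and any trait of that clone cannot be told apart. No further treatment was named for either group. There was 1 library per group, and no value below has a replicate check.

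MMP7, also called matrilysin, is a small secreted protease made mostly by epithelial cells. It lacks the hemopexin domain that most other matrix metalloproteinases carry, and its known substrates include matrix glycoproteins and E-cadherin. ADAM12 is a disintegrin and metalloprotease that exists as a membrane-bound and a shorter secreted form. It is known for releasing growth factors such as HB-EGF and for cutting IGF-binding proteins. Matrix metalloproteinases and several relatives are held in check by inhibitors, of which the TIMP proteins are the best known.

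The table was limited by the study to genes that passed its cut for change, and in it the smallest log2 ratio of RPKM (reads scaled by gene length and library size) was 0.99 in size. Being listed therefore already meant a change between the libraries, and only the direction, the level and the comparison with other listed genes were examined here. NAT10 transcript was not analysed here, and the sample labels were taken as given. Of 8 epithelial and lung markers, CDH1 was the one listed, and it was lower in the knockout. Of 7 markers of other cell types, COL1A1 and DES were listed, with 30 and 12 reads for COL1A1 and 0 and 10 reads for DES in control and knockout. The library sizes implied by the RPKM were 6077936 reads for the control and 5474969 for the knockout, and the reads of a listed gene had a median of 19 in all. Whether any of these markers bears on the values of MMP7 or ADAM12 was not tested.

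The sequences just before the start of both genes are shown first, since they hold different motifs. The MMP7 promoter lies at chr11:102530748-102530997 and that of ADAM12 at chr10:126388478-126388727, both on the minus strand of GRCh38.p14. Each covers the 250 bases before the RefSeq start and is written 5′ to 3′ along the gene. Capitals mark matches to the AP-1 motif (TGANTCA), the TATA box (TATAAA), the Sp1 motif (GGGCGG), the ETS motif (GGAAG) or the TCF motif (CTTTGA) on either strand, and no matches overlapped.
MMP7: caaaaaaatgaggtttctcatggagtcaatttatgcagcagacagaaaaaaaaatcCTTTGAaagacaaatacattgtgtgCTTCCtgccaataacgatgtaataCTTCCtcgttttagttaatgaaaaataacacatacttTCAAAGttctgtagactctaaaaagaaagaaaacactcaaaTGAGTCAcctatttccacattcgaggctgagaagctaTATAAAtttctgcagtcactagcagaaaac
ADAM12: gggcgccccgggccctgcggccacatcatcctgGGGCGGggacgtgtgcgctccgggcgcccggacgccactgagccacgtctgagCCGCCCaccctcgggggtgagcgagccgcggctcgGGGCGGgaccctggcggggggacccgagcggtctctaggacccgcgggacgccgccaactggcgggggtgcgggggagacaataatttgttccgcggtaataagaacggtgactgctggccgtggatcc

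The MMP7 promoter was AT-rich, with 33.6% G and C and 3 CpG dinucleotides. Its G and C content was above that of 4.15% of 27305 promoters, whose median was 58.0%. It held a TATA box at -30 to -25 and an AP-1 match at -67 to -61 from the start, as well as 2 ETS and 2 TCF matches. AP-1 letters were present in 6.60% of all promoters of this length, TATA box letters in 11.1%, TCF letters in 11.4% and ETS letters in 65.1%. The ADAM12 promoter was of the opposite kind, with 73.6% G and C, 31 CpG dinucleotides and 3 Sp1 matches, a motif present in 42.3% of all promoters. None of the AP-1, TATA, ETS or TCF letters was in the 250 bases before ADAM12. Such matches describe the letters only, and no binding was measured.

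**Figure D1:**
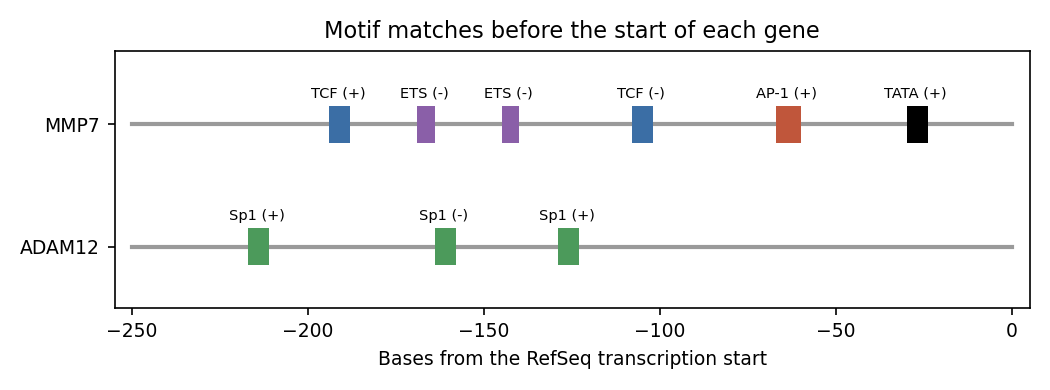
Motif matches in the 250 bases before the RefSeq transcription start of MMP7 and ADAM12. The horizontal axis is the distance from the start in bases, boxes mark matches and the sign gives the strand. MMP7 had AP-1, TATA, ETS and TCF matches, whereas ADAM12 had 3 Sp1 matches.

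MMP7 (ENSG00000137673) is a protein-coding gene on chromosome 11, at 102520508 to 102530753 on the minus strand of GRCh38. The control library gave MMP7 7.51 RPKM from 106 reads, and the knockout library gave it 1.97 RPKM from 25 reads. The exact 95% Poisson limits of these levels were 6.15 to 9.08 RPKM and 1.27 to 2.90 RPKM. MMP7 was thus 3.82-fold lower in the knockout library, which kept 26.2% of the control level. The log2 ratio of RPKM was -1.93, and its 95% Clopper-Pearson interval, which covers counting error only, ran from -2.62 to -1.29. In such bulk RNA, fewer cells with the transcript and less of it per cell cannot be told apart.

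ADAM12 (ENSG00000148848) is a protein-coding gene on chromosome 10, at 126012381 to 126388455 on the minus strand. The control library gave ADAM12 1.42 RPKM from 85 reads, and the knockout library gave it 0.445 RPKM from 24 reads. The Poisson limits were 1.13 to 1.75 RPKM and 0.285 to 0.662 RPKM. ADAM12 was 3.19-fold lower in the knockout library, which kept 31.3% of the control level. Its log2 ratio of RPKM was -1.67, with an interval from -2.39 to -1.01. The annotation holds 3 protein-coding transcripts of ADAM12, and the values do not separate the membrane-bound from the secreted form.

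**Figure D2:**
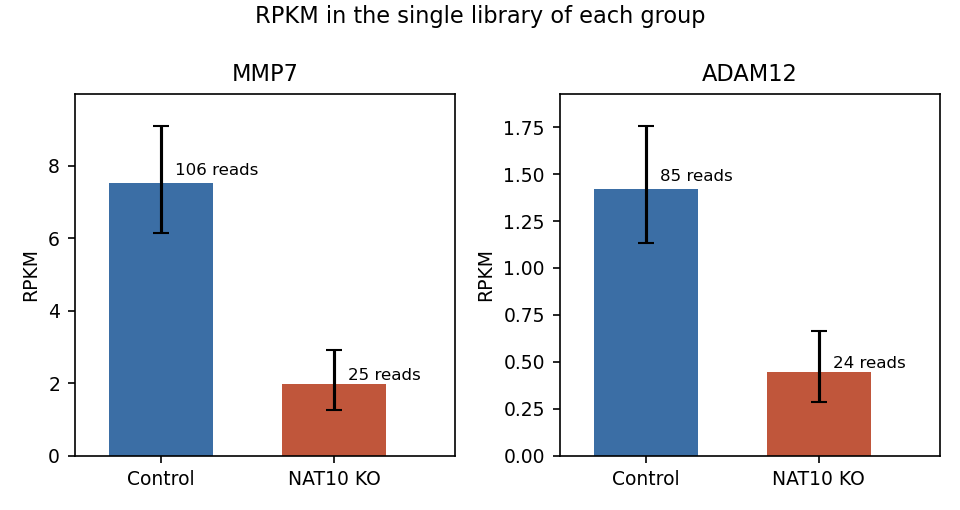
RPKM of MMP7 and ADAM12 in the Control and the NAT10 KO library, 1 library each. Bars show RPKM on an axis that starts at 0 and lines show exact 95% Poisson limits of the reads. Both genes were in the table because they passed the study's cut for change, so these limits are no separate test of a change.

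Both genes were lower in the knockout, as were 57.0% of all listed genes. The interval of the log2 ratio lay below 0 for both, as it did for 39.0% of the 1349 listed genes with recovered reads. With 1 RPKM added to each value, a scale that understates the change of low genes, the log2 ratio was -1.52 for MMP7 and -0.74 for ADAM12. Of the 2 genes, MMP7 was thus lower by more than 1 on that scale, as were 19.4% of all listed genes. MMP7 ranked 99 of 806 among the lower genes on that scale and ADAM12 ranked 402. A two-sided exact binomial test of the reads gave p = 2.62e-11 for MMP7 and p = 6.89e-08 for ADAM12. These p-values compare 2 libraries, not the conditions, and add little, since a small p-value was needed for a gene to be listed. When the libraries were assumed to vary with a coefficient of variation of 0.4, a negative binomial test gave p = 0.0380 for MMP7 and p = 0.0764 for ADAM12. The same limits hold for these 2 values.

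The 2 genes differed in level more than in change. MMP7 RPKM was 5.29 times that of ADAM12 in the control and 4.42 times in the knockout, although similar numbers of reads lay behind them. The exon length was 2323 bases for MMP7 and 9860 bases for ADAM12. Among all listed genes, the MMP7 level stood at percentile 92.9 in the control and 76.8 in the knockout, and the ADAM12 level at percentiles 65.7 and 40.8. On the reads, the log2 ratio of MMP7 minus that of ADAM12 was -0.26, with an exact 95% interval from -1.24 to 0.72. Fisher's exact test of the reads gave p = 0.631 (two-sided) for this difference, which was not detectable at this depth. With 1 RPKM added to each value the difference was -0.78, on the scale that understates the change of low genes.

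**Figure D3:**
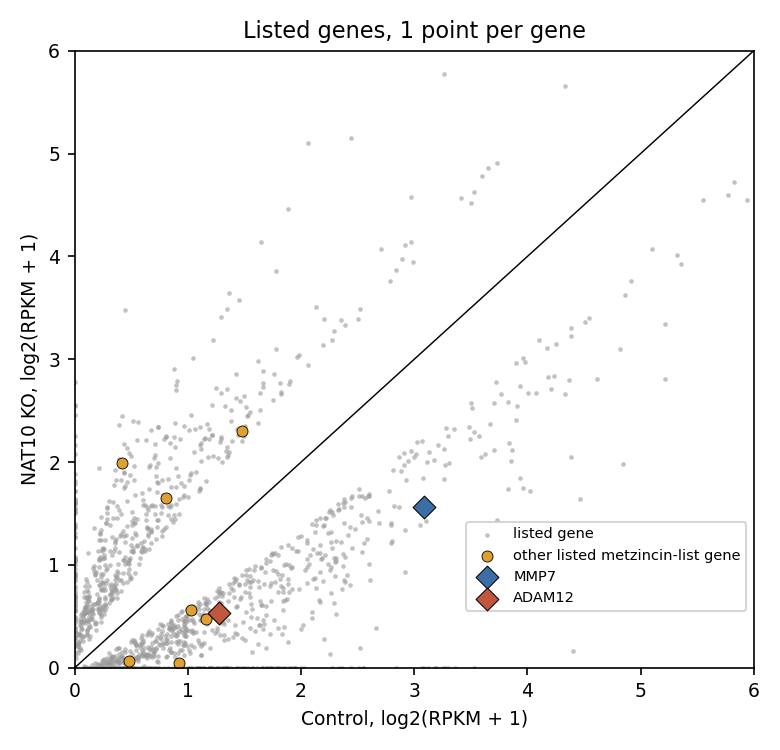
Level of each listed gene in the Control (horizontal) and the NAT10 KO library (vertical), both as log2(RPKM + 1), with the line of equal levels. Diamonds mark MMP7 and ADAM12 and large circles mark 7 other genes of the metzincin lists. The axes end at 6, which leaves out 13 of the 1415 genes. MMP7 lay far to the right of the other metzincins, and ADAM12 lay beside lower genes of modest level.

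The relatives of MMP7 and ADAM12 did not move one way. Of 78 genes of the metzincin lists (MMP, ADAM, ADAMTS with their protease-free relatives, astacins and pappalysins), 9 were listed, 6 lower and 3 higher. The 6 include MMP7 and ADAM12, and 57.0% of all listed genes were lower, so no lean of the family is read from this count. The median of these 9 on the log2(RPKM + 1) scale was -0.46, against -0.32 over all listed genes. The other 69 were not analysed here, so nothing is said of their levels. For scale, the table held 798 protein-coding genes, and the annotation holds 19684. Whether the genes of any list were listed more often than other genes was not tested.

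Among the other lower metzincins, MMP2, a gelatinase that cuts basement membrane collagen, went from 31 to 13 reads. The interval of its log2 ratio ran from -2.16 to -0.13, the limit nearest to no change among the 6. ADAMTS9, a secreted protease of proteoglycans such as versican, had 80 reads in the control against 23, and its interval ran from -2.38 to -0.96. Its log2 ratio of RPKM was -1.65, beside -1.67 for ADAM12. ADAMTS16, another secreted protease, had 32 control reads and 1 knockout read, and its interval ran from -10.20 to -2.27. TLL1, a procollagen-processing astacin, had 18 control and 2 knockout reads, and its interval ran from -6.17 to -0.96. In RPKM all 4 stood below MMP7 in both libraries, and between 0.394 and 1.23 in the control.

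The 3 higher genes included another ADAM. ADAM23, an ADAM without protease activity that takes part in cell contacts, went from 70 to 138 reads, 2.19-fold higher in RPKM, with an interval of the log2 ratio from 0.70 to 1.57. ADAMTS12 went from 20 to 159 reads, 8.83-fold higher in RPKM, with an interval from 2.47 to 3.89. PAPLN, a matrix protein related to the ADAMTS family, had 35 control and 90 knockout reads and an interval from 0.94 to 2.12. The intervals of ADAM23 and ADAM12 therefore lay on opposite sides of 0.

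Of 25 inhibitor genes, 2 were listed and both were lower. TFPI2, a secreted Kunitz-type inhibitor of serine proteases, had 45.8 RPKM in the control and 22.4 RPKM in the knockout, 2.04-fold lower. Its reads were not recovered as whole numbers, so it has no interval. SLPI, an inhibitor of leukocyte elastase, had 9 reads and 1 read, with an interval from -8.47 to -0.17. None of the TIMP genes or RECK was listed. Of 40 genes for other proteases at or near the cell surface or in lysosomes, 2 were listed and both were higher. DPP4, a dipeptidyl peptidase on the cell surface, had 1 and 10 reads, with an interval from 0.66 to 8.91. RHBDL2, an intramembrane protease, had 5 and 13 reads, and its interval, from -0.05 to 3.37, included 0. Of all 1415 listed genes, 806 were lower and 609 higher, so nothing is read from the direction of 2 genes in either list.

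**Figure D4:**
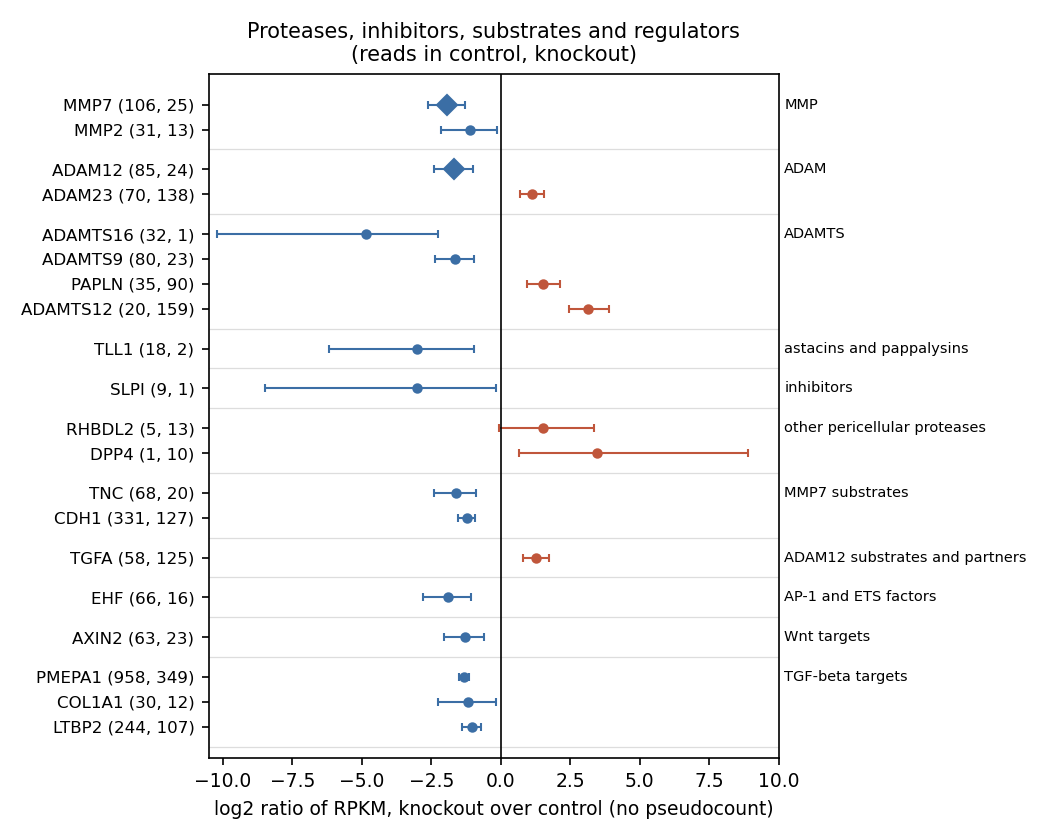
Log2 ratio of RPKM, knockout over control, for listed genes with recovered reads in the protease, inhibitor, substrate, factor and pathway lists. The lists of cell markers are left out, and brackets hold the reads of control and knockout. Lines are 95% Clopper-Pearson intervals, diamonds are MMP7 and ADAM12, and blue is lower and red higher in the knockout. MMP7 lay at -1.93 and ADAM12 at -1.67, while ADAM23, PAPLN and ADAMTS12 lay above 0.

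Substrates were next. Of 29 genes for known or reported MMP7 substrates, 2 were listed, both lower. CDH1, which encodes E-cadherin, had 8.82 RPKM in the control and 3.76 RPKM in the knockout, with an interval of the log2 ratio from -1.54 to -0.93. TNC, the matrix glycoprotein tenascin-C, had 1.16 and 0.379 RPKM, with an interval from -2.41 to -0.88. Since 57.0% of all listed genes were lower, nothing is read from the shared direction. Of 30 genes for known or possible ADAM12 substrates and partners, TGFA was the one listed. It encodes an EGF receptor ligand made as a membrane precursor, whose release by ADAM12 was not examined here. TGFA went the other way, from 1.92 to 4.60 RPKM, with an interval from 0.80 to 1.73. HBEGF, IGFBP3 and IGFBP5 were not listed.

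Genes of pathways known to act on MMP7 or ADAM12 transcription were looked up as well. Of 17 AP-1 and ETS factors, EHF, an epithelial ETS factor, was the one listed. It had 2.48 RPKM (66 reads) in the control and 0.666 RPKM (16 reads) in the knockout. The log2 ratio of EHF was -1.89, with an interval from -2.78 to -1.09. Of 20 Wnt targets, AXIN2, a feedback inhibitor of the Wnt pathway, was the one listed, with 63 and 23 reads and an interval from -2.06 to -0.59. MMP7 is also known as a Wnt target. Of 24 TGF-beta targets, a pathway known to induce ADAM12, 4 were listed, 3 lower and 1 higher. Over all listed genes 57.0% were lower, so nothing is read from this count. PMEPA1, a feedback inhibitor of that pathway, had 958 and 349 reads, with an interval from -1.49 to -1.13. LTBP2, which encodes a matrix protein, had 244 and 107 reads, with an interval from -1.38 to -0.70, and the collagen gene COL1A1 had an interval from -2.27 to -0.16. ZEB2, a repressor of epithelial genes, was higher, with 0.119 RPKM in the control and 0.534 RPKM in the knockout. Its reads were not recovered. With 1 library per group, whether any of these genes bears on MMP7 or ADAM12 was not tested.

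MMP7 sits in a cluster of matrix metalloproteinase genes, but no neighbour of its family was listed. Within 1 Mb of MMP7 the annotation holds 18 other protein-coding genes, 8 of them MMP genes. Only C11orf70 was in the table, 436 kb away, lower with 28 control and 11 knockout reads. Within 1 Mb of ADAM12 there were 11 other protein-coding genes, including 1 MMP gene. The one listed was C10orf90, 36.5 kb away, with 10 reads and 1 read and an interval of the log2 ratio from -8.61 to -0.36. No exon of MMP7 or ADAM12 shared a base with an exon of another annotated gene.

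The genes nearest in pattern were found by their distance in log2(RPKM + 1) over the 2 libraries among listed protein-coding genes. For MMP7 they were CXCL3, at 6.08 and 1.98 RPKM, C3, at 6.58 and 1.54 RPKM, and KIF13A, at 8.58 and 2.56 RPKM, with distances of 0.27, 0.28 and 0.31. CXCL3 is a chemokine, C3 a complement component and KIF13A a kinesin motor. For ADAM12 they were NHLRC1, CRB3 and SLC16A6, with distances of 0.05, 0.05 and 0.06. NHLRC1 rested on 20 and 5 reads and CRB3 on 13 and 4 reads, and their counting error was not weighed in the distances.

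To place ac4C, the base that NAT10 makes, the study combined peaks from antibody capture with a repeat written Cxx..Cxx..Cxx..Cxx. Here a form without gaps, with each C 3 bases after the last, was counted in the coding sequences, and no peaks were used. The matches therefore need not be sites of the kind the study examined. The form searched was CNNCNNCNNC on the sense strand, with overlapping matches counted. The longest run in each gene is printed with the repeated C in capitals. In MMP7 (transcript of 267 codons) it lies at chr11:102530637-102530649 in exon 1 of 6, and in ADAM12 (longest transcript, 909 codons) at chr10:126388104-126388119 in exon 1 of 23, both on the minus strand.
MMP7: CtgCcgCtgCctC
ADAM12: CccCgcCcgCgcCctC

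MMP7 held 3 matches in 801 coding bases, 3.75 per kb, which was above 24.7% of 19684 protein-coding genes. ADAM12 held 27 matches in 2727 bases, 9.90 per kb, near the median of 9.21 per kb over all genes. Among listed protein-coding genes the median was 10.7 per kb for lower genes and 11.1 per kb for higher ones. Runs at least as long as that of MMP7 were present in 81.1% of all coding sequences, and as long as that of ADAM12 in 62.1%. In coding sequence, MMP7 thus stood below the median density and ADAM12 close to it. Untranslated regions were not searched, and ac4C itself was not measured in these libraries.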

How the data were processed

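Total RNA of the 2 samples was extracted and made into SMARTer mRNA-seq libraries, 1 per group, per the labels. Samples were grouped by title. The authors deposited RPKM per gene and library, together with their own log2 fold change, p-value and adjusted p-value, which were not used here. The build was hg38 in the submitters' processing notes; the aligner, counter, gene annotation and strand handling are not given in the sources used here.

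From RPKM and exon lengths of GENCODE release 29 (GRCh38), reads came out whole (within 0.05 reads, or a tiny share of larger counts) in both libraries for 1349 of 1408 genes with a length (95.8%). The library sizes that make them whole carry any scaling by the authors. Log2 ratios used a pseudocount of 1 RPKM or none, as stated. Intervals (95%) cover counting error only, as reads carry no molecular identifiers. No test across genes was run. Exact tests compare the reads of 2 libraries. Python 3.11.15, SciPy 1.17.1 and pandas 2.3.3 were used, and read recovery was tested on simulated data.

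Named genes were MMP7, ADAM12, every listed member of the gene lists, listed genes within 1 Mb and the 3 nearest patterns. The members and lists were chosen with earlier results of these data known, and the promoter motifs after the sequences had been seen. Promoters came from RefSeq (both genes matched), coding sequences from GENCODE. Alternatives were other pseudocounts, minimum levels and an assumed spread between libraries.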

Additional observations from a re-analysis of the deposited data

How the results depend on the processing

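No paired analysis was possible because each group had 1 library. Both genes stayed lower in the knockout library under every pseudocount tried and on recovered reads, which could not have turned the direction. Reads were computed from RPKM, so their ratio repeats the one with no pseudocount. For MMP7 the log2 ratio of -1.52, which had 1 RPKM added, became -0.84 with 5 RPKM. It lay between -1.93 and -1.88 with 0.1 RPKM, with no pseudocount and on reads. That of ADAM12, -0.74 with 1 RPKM, was -1.48 with 0.1 RPKM and -1.67 with no pseudocount or on reads, since a pseudocount pulls low genes toward 0. The assumed spread, the exact binomial tests and the log2 ratios of MMP7 and ADAM12 on reads were chosen after seeing the data. When a coefficient of variation of 0.2 was assumed, both genes kept p under the threshold of 0.05 (exact negative binomial tests), but with 0.4 ADAM12 had p = 0.0764. The true spread was not measured. Over the whole table, 274 genes were lower and 189 higher by more than 1 with 1 RPKM added. Adding 0.1 RPKM made that 719 and 556, adding 5 RPKM made it 45 and 21, and asking for at least 10 recovered reads made it 180 and 120. Of 8 lower metzincin and inhibitor genes, 3 were left with a mean of at least 1 RPKM, namely MMP7, SLPI and TFPI2. ADAM12, with a mean of 0.931 RPKM, was among those removed. Scaling to the sequenced library totals was not run, since they are not given in the sources used here.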
